A study of Mus musculus with 18 samples.

Results

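The genes described here were all higher in every pluripotent line of the series than in fibroblasts, and set apart mouse embryonic stem cells (mESCs) from induced pluripotent stem cells (iPSCs). They comprised 65 of the 45037 probe sets of an Affymetrix mouse expression array, or 56 distinct gene symbol entries. The members were chosen by measured values: each stood, with a gene symbol, in the deposited list of 477 probe sets that were at least 10-fold above the mouse embryonic fibroblasts (MEFs), and its mean over 3 mESC arrays lay at least 0.75 above or below its mean over 12 iPSC arrays on the log2 scale. Pluripotency regulators with well known names and several large gene families were left out by symbol, which removed 11 probe sets past the threshold and left 408 named probe sets of the list, of which 343 lay under the threshold. Of the 65 probe sets, 27 were higher in mESCs (27 entries) and 38 were lower in mESCs (29 entries). Both the difference from mESCs and the excess over MEFs are therefore properties of the choice and are given as descriptions without a test. Of all 45037 probe sets, 6.48% passed this threshold upward or downward.

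The study asked whether Oct4 or Klf4 together with EpCAM, an epithelial adhesion molecule, and its soluble extracellular domain EpEX can reprogram fibroblasts. MEFs from E13.5 embryos, used within 4 passages, received doxycycline-inducible piggyBac plasmids and were grown on feeder cells with doxycycline at 1.5 µg/ml for 21 days. The OE + EpEX group (4 clones) carried Oct4 and EpCAM and was treated with EpEX, the KE + EpEX group (4 clones) carried Klf4 and EpCAM and was treated with EpEX, and the OSKM group (4 clones) carried Oct4, Sox2, Klf4 and c-Myc. The other arrays were 3 of mESCs and 3 of MEFs. All 18 samples, mESCs included, are labelled with the same mouse strain, which carries a doxycycline-responsive transactivator (the Gt (ROSA) 26Sortm1 (rtTA*M2) Jae/J allele on B6.Cg) and a modified Pou5f1 locus (B6.129S4-POU5f1tm2Jae/J). The series speaks of a single MEF primary culture while the labels name 3 biological replicates, so the MEF arrays may share a culture. For the iPSCs a replicate is a clone, and nothing says whether clones of a group came from separate transfections.

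Values were deposited as log2 signals from which the median of each probe set over the 18 arrays had been subtracted. A value of 0 is therefore the midpoint between the middle arrays, which for these genes were mostly iPSC arrays, and levels of different probe sets cannot be compared. Where MEFs and mESCs both lay below the clones, the centring places most clones above 0. Probe sets of 8 marker genes of pluripotent cells averaged 0.89 to 1.01 per array in mESCs, -0.039 to 0.54 in iPSCs and -7.69 to -7.50 in MEFs, although probe sets of the deposited list were themselves chosen for that gap. Fibroblast markers (14 probe sets of 9 genes among 12 listed) averaged 4.90 to 6.04 in MEFs. None of 14 markers of primitive endoderm and trophoblast had a symbol in the files. Of a wider list of 36 such genes Tfap2c alone stood among the named probe sets, under the threshold at -0.57, -0.39 and -0.14, so these cell types were hardly examined here. The first MEF array stood apart: its fibroblast markers averaged 4.90 against 6.02 and 6.04, and it was at least 1 log2 unit above the mean of the other MEF arrays for 7 of the 27 and 6 of the 38 members. No pair of arrays was identical. In bulk RNA, a gene expressed in fewer cells and a gene with less RNA per cell cannot be told apart.

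Reprogramming replaces the fibroblast programme with that of a pluripotent cell, in which factors such as OCT4 and NANOG keep each other active. In early embryo cells and the germ line, many genes that somatic cells silence by DNA methylation are open, among them X-linked families expressed in testis, and the enzymes DNMT3A and DNMT3B place new methylation as pluripotent cells prepare to differentiate. Clones of iPSCs and lines of mESCs are known to vary in such genes as well as in genes of epithelial junctions and metabolism.

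Promoters of 5 members are shown because these genes form the pairs and the methylation enzyme on which the account below turns: Bex2 and Bex4, X-linked neighbours that were both higher in mESCs, Rhox13 and Rhox5, homeobox genes of one X-linked cluster that differed from mESCs in opposite directions, and Dnmt3b. The sequences are RefSeq's (GRCm38.p6), 5′ to 3′ on the gene's strand, from 250 bases before to 50 bases after the start, and capitals mark CpG dinucleotides, the bases at which DNA is methylated. Bex2 lies on the minus strand at chrX:136068187-136068486, and the others lie on the plus strand, Bex4 at chrX:136138746-136139045, Rhox13 at chrX:38120590-38120889, Rhox5 at chrX:37754358-37754657 and Dnmt3b at chr2:153649199-153649498.
Bex2: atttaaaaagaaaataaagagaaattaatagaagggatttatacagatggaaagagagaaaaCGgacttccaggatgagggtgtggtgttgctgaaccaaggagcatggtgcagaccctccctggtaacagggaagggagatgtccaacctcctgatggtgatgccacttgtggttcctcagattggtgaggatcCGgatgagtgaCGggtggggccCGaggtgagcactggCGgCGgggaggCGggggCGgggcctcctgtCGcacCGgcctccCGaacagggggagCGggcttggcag
Bex4: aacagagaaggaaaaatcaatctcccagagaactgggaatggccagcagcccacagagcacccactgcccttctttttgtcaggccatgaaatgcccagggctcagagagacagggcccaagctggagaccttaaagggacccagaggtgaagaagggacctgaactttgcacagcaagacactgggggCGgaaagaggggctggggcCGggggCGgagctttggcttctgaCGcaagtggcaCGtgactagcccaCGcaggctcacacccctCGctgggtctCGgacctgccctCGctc
Rhox13: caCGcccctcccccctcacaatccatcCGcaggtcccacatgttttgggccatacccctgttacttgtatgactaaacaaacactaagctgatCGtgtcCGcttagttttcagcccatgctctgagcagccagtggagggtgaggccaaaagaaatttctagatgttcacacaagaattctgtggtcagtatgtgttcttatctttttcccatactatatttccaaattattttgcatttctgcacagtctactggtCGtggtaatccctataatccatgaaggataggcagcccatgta
Rhox5: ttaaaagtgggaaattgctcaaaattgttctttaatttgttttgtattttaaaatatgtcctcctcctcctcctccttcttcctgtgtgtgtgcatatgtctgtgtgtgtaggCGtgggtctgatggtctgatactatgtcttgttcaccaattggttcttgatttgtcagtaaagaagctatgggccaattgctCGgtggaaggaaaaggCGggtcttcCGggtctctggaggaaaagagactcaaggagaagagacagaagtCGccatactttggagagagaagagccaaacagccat
Dnmt3b: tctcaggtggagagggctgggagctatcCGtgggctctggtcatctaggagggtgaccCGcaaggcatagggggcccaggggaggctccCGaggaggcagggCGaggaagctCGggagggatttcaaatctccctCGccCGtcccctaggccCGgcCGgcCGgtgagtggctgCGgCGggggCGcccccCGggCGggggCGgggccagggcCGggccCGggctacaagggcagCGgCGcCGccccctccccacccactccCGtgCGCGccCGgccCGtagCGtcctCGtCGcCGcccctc
The Dnmt3b window held 30 CpGs and was 76.0% G or C, against 12 CpGs for Bex2, 9 for Bex4 and 5 each for Rhox13 and Rhox5. Over all 32851 promoter windows of this length the median was 7.

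Among the 39 single-symbol members with a promoter entry (57 windows), the median number of CpGs was 9.5 in the 32 windows of members higher in mESCs and 16.0 in the 25 windows of members lower in mESCs. An octamer (ATGCAAAT, either strand) was found in 3 of the 57 windows, those of Tspan13, Liph and Pnma5, or 5.26% against 1.74% of all windows. The STAT motif TTCNNNGAA was present in 5.26% against 8.30%, the E box CACGTG in 15.8% against 7.15%, and TATAAA in 14.04% against 13.6%. These are letter matches within 300 bases and are given as a description; several windows belong to one gene.

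The 27 members that were higher in mESCs differed by 0.76 to 1.99 (median 0.98), and 12 of them by at least 1, that is, 2-fold. The 38 that were lower differed by -0.76 to -4.13 (median -1.13), 25 of them by at least 1. For 21 of the 27 and 31 of the 38, all iPSC values lay on the same side of all mESC values. This property was shared by 12% of all probe sets and was largely fixed by the choice of members. Just inside the threshold lay Sap30 (0.76) and Smagp (0.76) on the higher side and Nodal (-0.76) and Gca (-0.76) on the lower side. Cdca7 (0.75 after rounding, but under the threshold), Syce2 (0.71), Exoc6 (-0.74) and a second probe set of Map7 (-0.73) lay just outside. The heat map of the members shows the choice and what it left free: the mESC and OSKM columns varied little within their groups, and the OE + EpEX and KE + EpEX clones varied more.

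**Figure D1:**
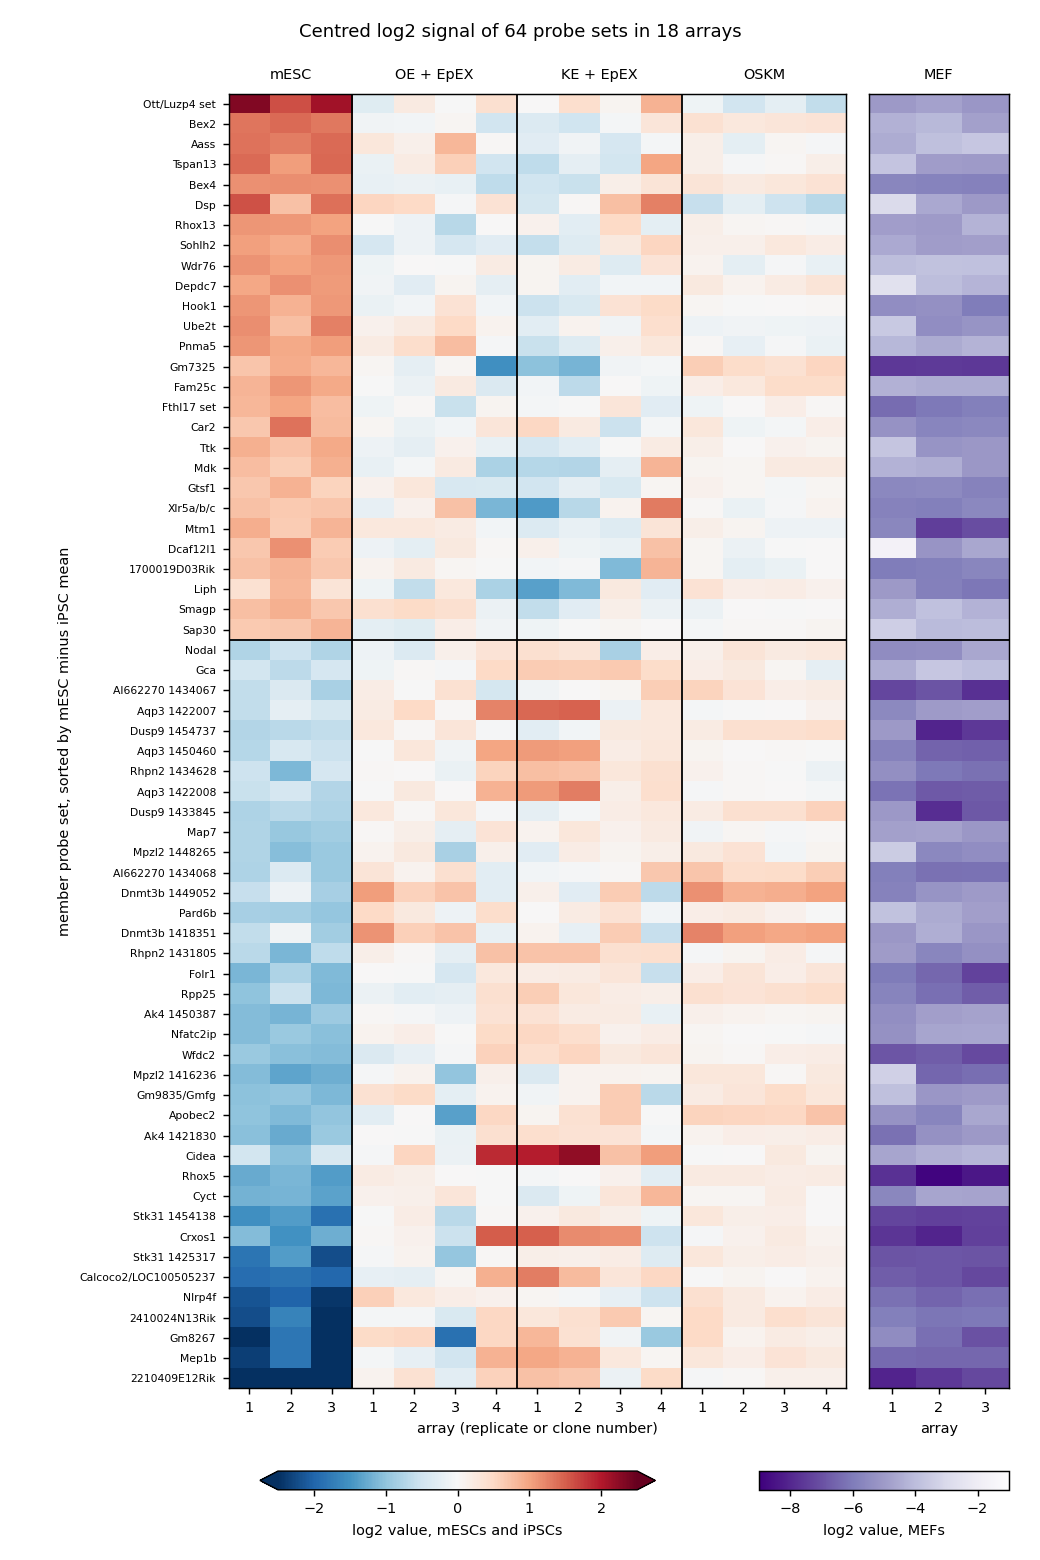
Centred log2 signal of 64 of the 65 chosen probe sets (rows, sorted by the mESC minus iPSC mean) in 3 mESC, 12 iPSC and 3 MEF arrays (columns), with a separate colour scale for MEFs. The black line divides the 27 probe sets higher in mESCs from 37 lower in mESCs, and Cidea, Aqp3, Crxos1 and Calcoco2 stand out in OE + EpEX clone 4 and KE + EpEX clones 1 and 2. Crxos1 is likewise high in KE + EpEX clone 3.

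Germline and testis genes were found at both ends. Of 90 genes in a list of germline and cancer-testis genes, 30 had a symbol among the 408 probe sets, and 6 entries were members, 3 higher and 3 lower in mESCs. Members made up 7 of the 29 probe sets of that list (24.1%), against 65 of the 408 (15.9%), and its median difference was -0.018, against 0.052 over the 408. No test of the list was made. Nlrp4f, a germ cell member of the NLR family, had values of -2.16, -1.99 and -2.43 in the mESC arrays. Its OE + EpEX clones were at 0.59, 0.27, 0.16 and 0.10, its KE + EpEX clones at 0.053, -0.053, -0.21 and -0.51 and its OSKM clones at 0.40, 0.23, 0.087 and 0.20. All 12 clones thus lay well above the mESCs, by 4.95-fold on average, and KE + EpEX clones 2, 3 and 4 were the lowest of the 12.

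Stk31, a testis kinase-domain protein, was measured by 2 probe sets that differed by -1.82 and -1.64. On the first, mESCs were at -1.82, -1.40 and -2.23, OE + EpEX clones at -0.026, 0.094, -0.97 and 0.026, KE + EpEX clones at 0.16, 0.13, 0.18 and -0.31 and OSKM clones at 0.29, 0.15, 0.18 and 0.13. OE + EpEX clone 3 was the clone nearest to mESCs and KE + EpEX clone 4 the next, on both probe sets. The remaining lower member of the germline list, Rhox5, is described below. Cyct, the testis form of cytochrome c, was not in that list. It was lower in mESCs by 1.36, with the clones at -0.37 to 0.84 and the mESCs at -1.18, -1.17 and -1.34.

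Sohlh2, a transcription factor of early germ cells, went the other way, at 1.03, 0.92 and 1.16 in mESCs and -0.60 to 0.54 in the clones. Gtsf1, a protein of the piRNA pathway, was higher in mESCs by 0.81 and the probe set shared by Xlr5a, Xlr5b and Xlr5c, X-linked genes of the Xlr family, by 0.80. For the Xlr5 probe set the clones ranged from -1.42 to 1.30 on both sides of the mESCs (0.73, 0.66 and 0.70). KE + EpEX clone 4 lay above all mESC arrays, and KE + EpEX clone 1 was the lowest.

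The X chromosome held 9 of the 27 entries higher in mESCs (33.3%) and 2 of the 28 placed entries lower in mESCs (7.14%), while 4.85% of the placed entries of the list under the threshold and 4.41% of RefSeq protein-coding genes were X-linked. Over all 26 X-linked probe sets of the 408, the median difference was 0.42 and 17 lay above 0. Over the 380 other placed ones it was 0.043 and 203 lay above 0. These 380 were autosomal except for the Y-linked Uba1y (-0.11). Several X-linked members are neighbours or near copies of one another, so they are not independent. The Y-linked Ddx3y and Eif2s3y, left out by the choice, had mESC values of -0.13 to 0.15 within the range of the clones (-0.49 to 0.54), and MEF values of -6.31 to -1.79; the part of the sex of the lines in the X-linked differences was not tested.

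**Figure D2:**
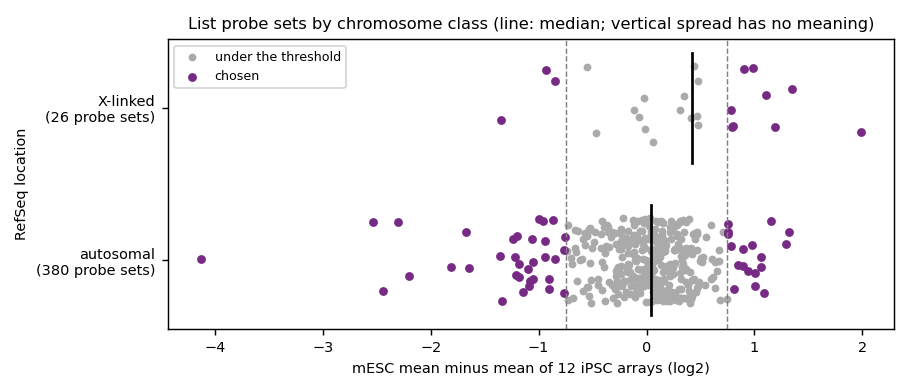
Mean of mESCs minus mean of 12 iPSC arrays (log2, x axis) for 26 X-linked and 380 other placed probe sets of the list, with chosen probe sets in purple and the choice threshold of 0.75 dashed. The row labelled autosomal includes the Y-linked Uba1y. The median line lies at 0.42 for X-linked and 0.043 for the other probe sets.

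The largest difference on the higher side was that of a probe set assigned to Ott, Luzp4 and predicted genes of their X-linked cluster, whose shared sequence cannot tell them apart. The mESC arrays were at 2.32, 1.62 and 2.10, OE + EpEX clones at -0.29, 0.22, -0.018 and 0.39, KE + EpEX clones at 0.018, 0.43, 0.065 and 0.87 and OSKM clones at -0.10, -0.48, -0.24 and -0.62. The OSKM clones were the furthest from mESCs, and the highest clone, KE + EpEX clone 4, lay below the lowest mESC array. The difference of 1.99 corresponds to 3.98-fold.

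Bex2 and Bex4, X-linked genes of a family of small adaptor proteins, differed by 1.35 and 1.20. Bex4 was at 1.13, 1.16 and 1.15 in mESCs, -0.18, -0.15, -0.19 and -0.64 in OE + EpEX, -0.50, -0.55, 0.15 and 0.31 in KE + EpEX and 0.32, 0.23, 0.28 and 0.37 in OSKM clones. Bex2 was at 1.34, 1.41 and 1.31, -0.086, -0.064, 0.05 and -0.48, -0.34, -0.51, -0.05 and 0.31 and 0.39, 0.26, 0.31 and 0.33 in the same order. Both genes had their lowest clones in OE + EpEX clone 4 and KE + EpEX clones 1 and 2, and for both the 4 OSKM clones lay above all OE + EpEX clones.

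Rhox13, at 1.10, 1.08 and 1.00 in mESCs, was at -0.70 to 0.50 in the clones, with the lowest value in OE + EpEX clone 3. Rhox5, a homeobox gene of the same cluster that is known for its silencing by methylation, was at -1.26, -1.14 and -1.39 in mESCs and -0.27 to 0.22 in the clones. The Rhox5 clones were tightly grouped, with an SD of 0.016 in OSKM, 0.16 in KE + EpEX and 0.10 in OE + EpEX clones. Thus neighbours of one cluster, whose promoters are printed above, differed from mESCs by 1.11 and -1.35.

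The other X-linked members that were higher in mESCs were Pnma5 (0.99), a probe set of the ferritin-like Fthl17 family (0.91), Mtm1, a phosphoinositide phosphatase (0.80), and Dcaf12l1 (0.79). A second Mtm1 probe set of the list differed by 0.44 and was no member. Dusp9, an X-linked phosphatase that inactivates MAP kinases, was lower in mESCs on both probe sets (-0.93 and -0.85), with mESCs at -0.76, -0.68 and -0.77 and clones at -0.23 to 0.58 on the first. For Dcaf12l1, Dusp9 and Mpzl2 the first MEF array was 2.02 to 3.19 above the mean of the other MEF arrays.

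The largest difference of all was that of 2210409E12Rik, which RefSeq lists as a transcribed pseudogene. Its mESC values were -4.02, -3.72 and -3.97, its OE + EpEX clones were at 0.082, 0.38, -0.26 and 0.58, KE + EpEX at 0.74, 0.67, -0.15 and 0.47 and OSKM at -0.028, 0.028, 0.13 and 0.12, and its MEFs at -8.08, -7.57 and -7.21. The clones were 17.5-fold above mESCs, and lay 7.85 above MEFs where mESCs lay 3.72 above them. Mep1b, a metalloprotease of kidney and gut, came next with -2.53: mESCs were at -2.36, -1.81 and -2.59, OE + EpEX clones at -0.045, -0.20, -0.49 and 0.87, KE + EpEX clones at 0.97, 0.86, 0.27 and 0.045 and OSKM clones at 0.29, 0.17, 0.35 and 0.25.

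Gm8267, a predicted protein-coding gene, differed by -2.44 with one clone inside the mESC range. Its mESCs were at -2.51, -1.80 and -2.81, OE + EpEX clones at 0.49, 0.52, -1.87 and 0.52, KE + EpEX clones at 0.84, 0.38, -0.093 and -0.92 and OSKM clones at 0.49, 0.093, 0.21 and 0.15. OE + EpEX clone 3 lay within the mESC range and KE + EpEX clone 4 between it and the other clones. The symbol 2410024N13Rik, not matched in RefSeq here, differed by -2.38 with clones at -0.39 to 0.65.

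Crxos1, a homeobox gene expressed before implantation, was at -1.09, -1.51 and -1.23 in mESCs, 0.038, 0.11, -0.53 and 1.52 in OE + EpEX, 1.49, 1.18, 1.15 and -0.51 in KE + EpEX and -0.038, 0.11, 0.22 and 0.085 in OSKM clones. OE + EpEX clone 4 and KE + EpEX clones 1, 2 and 3 were the highest, while KE + EpEX clone 4 and OE + EpEX clone 3 were the lowest. Calcoco2, an autophagy receptor that shares its probe set with LOC100505237, was at -1.90, -1.85 and -1.96 in mESCs and at -0.22 to 1.28 in the clones. It was the single gene of a list of 26 genes of the 2-cell-like state that had a symbol among the 408 probe sets.

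Of 63 pluripotency regulators and markers, 28 had a symbol among the 408 probe sets, and among these Bex2 and Bex4 were members higher and Calcoco2 and Nodal members lower in mESCs. Members made up 5 of the 38 probe sets of that list, counting 1 not named here. This was 13.2%, against 15.9% of the 408, and the list's median difference was -0.092, without a test of the list. Dnmt3b, the de novo DNA methyltransferase, was the one member of a list of formative and primed pluripotency markers, of which 2 genes had a symbol, and it was lower in mESCs on both probe sets (-1.06 and -0.99). On the first, mESCs were at -0.61, -0.094 and -0.88, OE + EpEX clones at 1.12, 0.59, 0.71 and -0.18, KE + EpEX clones at 0.094, -0.20, 0.64 and -0.57 and OSKM clones at 1.23, 1.03, 0.97 and 1.01. The OSKM clones were all above 0.9, whereas OE + EpEX clone 4 and KE + EpEX clones 2 and 4 lay within the range of the mESCs. The second probe set gave the same order of groups, with means of -0.51 ± 0.35 (SD, n = 3) in mESCs, -0.045 ± 0.55 in KE + EpEX, 0.52 ± 0.55 in OE + EpEX and 0.98 ± 0.12 in OSKM clones (SD, n = 4 each).

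Apobec2, a cytidine deaminase family member and the other member among genes of DNA methylation and chromatin, was at -0.999, -1.10 and -0.996 in mESCs, -0.27, 0.011, -1.36 and 0.51 in OE + EpEX, 0.075, 0.38, 0.63 and -0.011 in KE + EpEX and 0.56, 0.53, 0.53 and 0.72 in OSKM clones. OE + EpEX clone 3 lay below all mESC arrays and the OSKM clones were among the highest. Nodal, the ligand of the Nodal and activin pathway, was a member on one probe set (-0.76, mESCs -0.74, -0.51 and -0.76, clones -0.81 to 0.39) and just under the threshold on the other (-0.65). Rpp25, a subunit of ribonuclease P, differed by -1.10.

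Of 12 genes of epithelial junctions and polarity with a symbol among the 408 probe sets, 4 were members, 1 higher and 3 lower in mESCs. They held 5 of the list's 19 probe sets (26.3%, against 15.9% of the 408), and the median over the 19 was -0.37, again without a test of the list. Pard6b, a polarity protein, differed by -1.05 and Mpzl2, an epithelial adhesion protein, by -1.20 and -0.95 on its probe sets. Map7, which binds microtubules in epithelial cells and belongs to a separate list of keratins and cytoskeleton genes, differed by -0.94.

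Dsp, which encodes desmoplakin and anchors desmosomes to keratin filaments, was the member of this list that was higher in mESCs, at 1.59, 0.74 and 1.37 in mESCs, 0.53, 0.50, -0.022 and 0.36 in OE + EpEX, -0.43, 0.022, 0.75 and 1.26 in KE + EpEX and -0.57, -0.25, -0.51 and -0.68 in OSKM clones. KE + EpEX clones 3 and 4 reached the mESC range and the OSKM clones were the lowest group. Hook1, a microtubule linker protein, was higher in mESCs by 1.01, Tspan13, a tetraspanin, by 1.29 and Smagp, a small adhesion glycoprotein, by 0.76.

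Cidea and Aqp3 were lower in mESCs and varied between clones. Cidea, a lipid droplet protein, was at -0.46, -1.05 and -0.40 in mESCs, -0.034, 0.53, -0.14 and 1.87 in OE + EpEX, 1.96, 2.22, 0.73 and 1.04 in KE + EpEX and -0.013, 0.013, 0.25 and 0.059 in OSKM clones. Aqp3, a water and glycerol channel, was lower in mESCs on all 3 of its probe sets (-0.85 to -0.90). On the last of these the mESCs were at -0.56, -0.43 and -0.73, OE + EpEX clones at -0.0038, 0.25, 0.0038 and 0.87, KE + EpEX clones at 1.07, 1.28, 0.15 and 0.42 and OSKM clones at -0.034, 0.023, 0.011 and -0.057. For both genes OE + EpEX clone 4 and KE + EpEX clones 1 and 2 were the highest of the 12 clones and the OSKM clones lay close together.

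Ak4, a mitochondrial adenylate kinase, was lower in mESCs on both probe sets (-1.24 and -1.15) and varied little between clones (-0.16 to 0.42 on the first). Folr1, a folate receptor, differed by -1.09, Rhpn2 by -1.08 and -0.90, Wfdc2, a secreted protease inhibitor-like protein, by -1.18, and Nfatc2ip by -1.18. Gca, which encodes the calcium-binding protein grancalcin, differed by -0.76, the probe set shared by Gmfg and Gm9835 by -1.21, and the long noncoding RNA AI662270 by -0.96 and -0.76.

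The remaining members on the higher side had various functions. Aass, the first enzyme of lysine breakdown, was at 1.35, 1.27 and 1.42 in mESCs, 0.29, 0.12, 0.83 and 0.037 in OE + EpEX, -0.28, -0.092, -0.43 and -0.056 in KE + EpEX and 0.14, -0.25, 0.055 and -0.037 in OSKM clones, and its highest clone was OE + EpEX clone 3. Car2, a carbonic anhydrase, differed by 0.89. Wdr76, a WD-repeat protein linked to DNA damage, differed by 1.06, Ube2t, the ubiquitin-conjugating enzyme of the Fanconi anaemia pathway, by 1.00, Ttk, a kinase of the spindle checkpoint, by 0.89, and Sap30, a subunit of the Sin3 deacetylase complex, by 0.76. Mdk, the growth factor midkine, was at 0.77, 0.62 and 0.88 in mESCs and -0.78 to 0.84 in the clones. The members Depdc7 (1.06), Gm7325 (0.98), Fam25c (0.94), 1700019D03Rik (0.78) and the lipase gene Liph (0.76) complete the higher side.

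Against the MEFs, the members higher in mESCs were 4.53 to 8.37 above MEFs in mESCs and 3.61 to 7.39 in iPSCs, and the members lower in mESCs were 3.49 to 7.06 above MEFs in mESCs and 4.25 to 8.41 in iPSCs. Without the first MEF array these ranges were 4.73 to 8.36, 3.80 to 7.38, 3.28 to 7.36 and 4.04 to 8.71. Every member was thus far above the fibroblast level in mESCs and clones alike, which the deposited list had required.

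The distance to mESCs was next compared by iPSC group. For the members higher in mESCs the median difference was 0.85 from OSKM, 1.02 from KE + EpEX and 0.95 from OE + EpEX clones, and for those lower in mESCs it was -1.23, -1.22 and -1.02. The same 3 mESC arrays enter all of these values. Every member differed from each of the groups in the direction of the choice, by at least 0.31 for OSKM, 0.47 for KE + EpEX and 0.48 for OE + EpEX clones. The plot of differences by group shows where the groups part: Gm7325 was 1.23 and 1.40 below mESCs in OE + EpEX and KE + EpEX but 0.32 in OSKM clones, and Cidea was 2.12 above mESCs in KE + EpEX but 0.71 in OSKM clones.

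**Figure D3:**
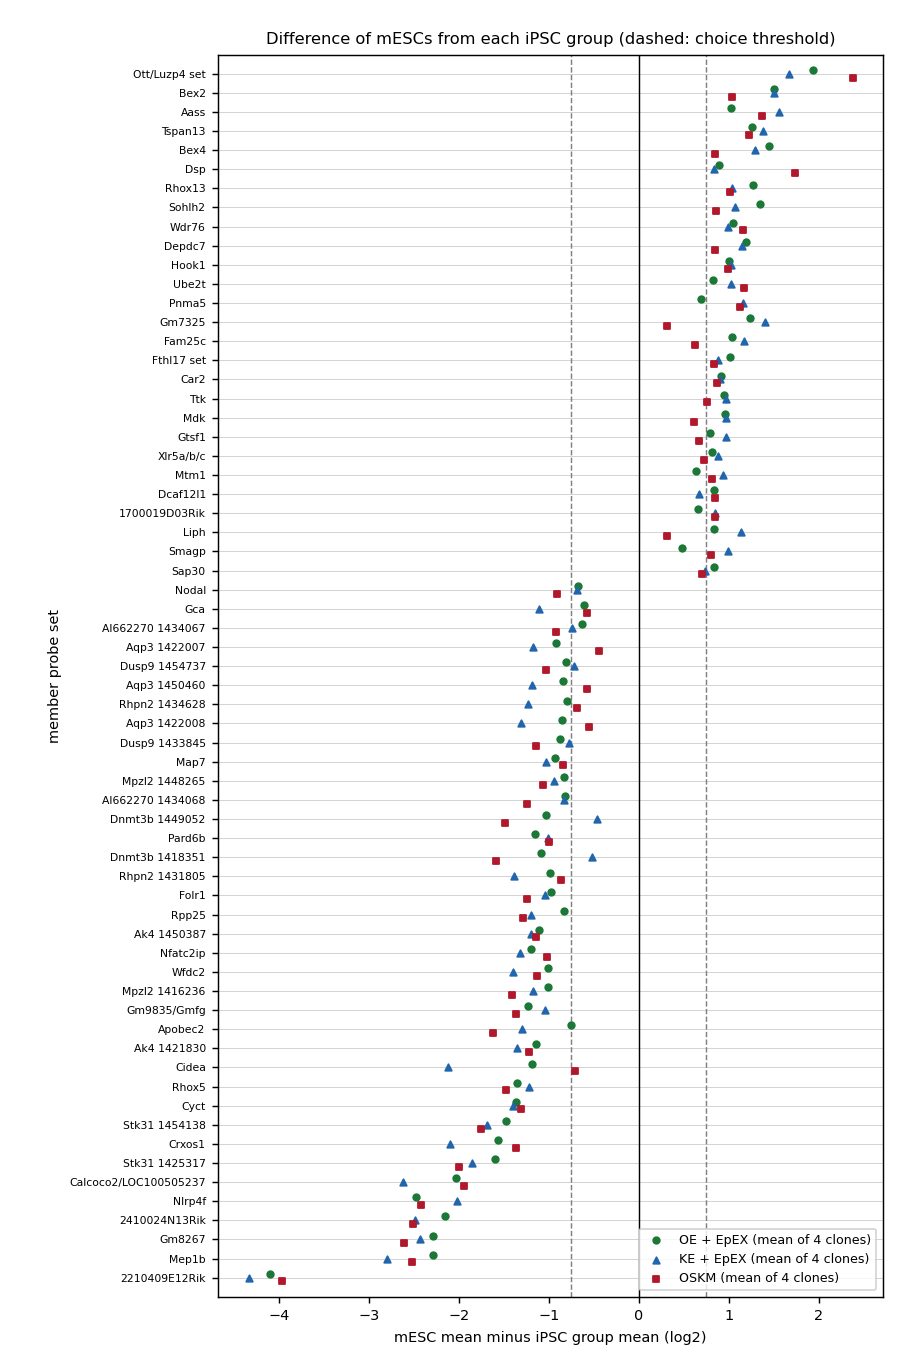
Mean of 3 mESC arrays minus the mean of 4 clones (log2, x axis) for 64 of the 65 probe sets and each iPSC group, with the choice threshold dashed. The groups lie close together for most members, and they part for Dnmt3b, Cidea, Gm7325 and Dsp.

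The 3 comparisons among iPSC groups did not enter the choice and were tested with limma over all 45037 probe sets. No member was called at an adjusted p under 0.05 with a log2 difference of at least 1, where 0.0444% of all probe sets were called for OE + EpEX against OSKM, 0% for KE + EpEX against OSKM and 0% for OE + EpEX against KE + EpEX. At an unadjusted limma p under 0.05, 11 members passed for OE + EpEX against OSKM (16.9%, background 11.5%), 20 for KE + EpEX against OSKM (30.8%, background 7.72%) and 9 for OE + EpEX against KE + EpEX (13.8%, background 5.43%). The background is the whole array, and the share over the 408 named probe sets was not examined. This fit uses 1 spread for all groups, although clones of the groups with EpEX varied more than OSKM clones. With the 2 compared groups alone in the fit, 18, 28 and 5 members passed the same limit, against 8956, 5468 and 2542 of all probe sets. The methods' t-test without adjustment counted 9, 22 and 3 members, against 8240, 4979 and 2719 of all 45037 probe sets. By that test the members' share exceeded that of all probe sets for KE + EpEX against OSKM alone. After Benjamini-Hochberg adjustment it counted 0 members in each comparison. The lowest limma adjusted p of a member was 0.151, 0.285 and 0.867. The median absolute difference of the members was 0.24, 0.26 and 0.18, against 0.12, 0.099 and 0.097 over all probe sets and 0.16, 0.16 and 0.11 over the 408 named probe sets of the list.

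Between KE + EpEX and OSKM clones, the member with the lowest p was Dnmt3b, which differed by -1.07 (SE 0.28, limma adjusted p = 0.285), from -0.011 ± 0.51 to 1.06 ± 0.12 (SD, n = 4 each), and the groups did not overlap. Its second probe set differed by -1.02 (SE 0.28, limma adjusted p = 0.314). Without KE + EpEX clone 3, the clone nearest to OSKM, both were called, at -1.29 and -1.25 with limma adjusted p of 0.041 and 0.049. Quantile normalization of all arrays also called both, with -2.66 for the first and limma adjusted p of 0.00389 and 0.00667. For this comparison it called 831 probe sets over the whole array, where the main setting called 0. Over the other leave-one-out fits of the first probe set, the limma adjusted p was 0.353 to 0.869.

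Cidea was higher in KE + EpEX than in OSKM clones by 1.41 (SE 0.38, limma adjusted p = 0.302), and Fam25c was lower by 0.54 (SE 0.14, limma adjusted p = 0.288). Both had groups that did not overlap, and both were called after quantile normalization, at 1.94 and -1.16 (limma adjusted p = 0.0152 and 0.0294). The probe sets of Gm7325 (-1.08), the Ott and Luzp4 cluster (0.71), Gca (0.53), Aqp3 (0.74) and Calcoco2 (0.68) came next, none past the adjusted threshold in the deposited scaling; after quantile normalization Gm7325 (-2.28) and the Ott and Luzp4 cluster (1.36) were called (limma adjusted p = 0.0308 and 0.0326). Of the 20 member probe sets at an unadjusted limma p under 0.05, 11 were higher and 9 lower in KE + EpEX clones. Aqp3, Dnmt3b and Rhpn2 each count more than once among these 20.

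Between OE + EpEX and OSKM clones, Bex4 differed by -0.59 (SE 0.16, limma adjusted p = 0.151), Gm7325, which RefSeq names Mymx after a muscle fusion peptide, by -0.91 (SE 0.30, limma adjusted p = 0.241), and Apobec2 by -0.86 (SE 0.30, limma adjusted p = 0.267). Quantile normalization called all 3, at -1.20, -1.99 and -2.06 with limma adjusted p of 0.0209, 0.0364 and 0.0100. For this comparison it called 1523 probe sets over the whole array, where the main setting called 20. With OE + EpEX and OSKM arrays alone in the fit the limma adjusted p of Bex4 was 0.0220, at the same difference under 2-fold. The OE + EpEX values of Gm7325 were 0.049, -0.23, 0.055 and -1.54 and the OSKM values 0.62, 0.46, 0.37 and 0.53. These groups did not overlap, but the difference was -0.54 without OE + EpEX clone 4. Likewise the difference of Apobec2 was -0.50 without OE + EpEX clone 3.

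Between OE + EpEX and KE + EpEX clones, the lowest p values belonged to Nlrp4f, with a difference of 0.46 (SE 0.14, limma adjusted p = 0.867), Gca, with -0.49 (SE 0.16, limma adjusted p = 0.867), and Smagp, with 0.51 (SE 0.16, limma adjusted p = 0.867). Nlrp4f values did not overlap between the groups, and those of Gca and Smagp did. The KE + EpEX clones were at 0.64, 0.61, 0.65 and 0.46 for Gca, against -0.11, 0.02, -0.02 and 0.50 in OE + EpEX. For Smagp they were at -0.61, -0.27, 0.15 and -0.16, against 0.40, 0.49, 0.39 and -0.14.

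**Figure D4:**
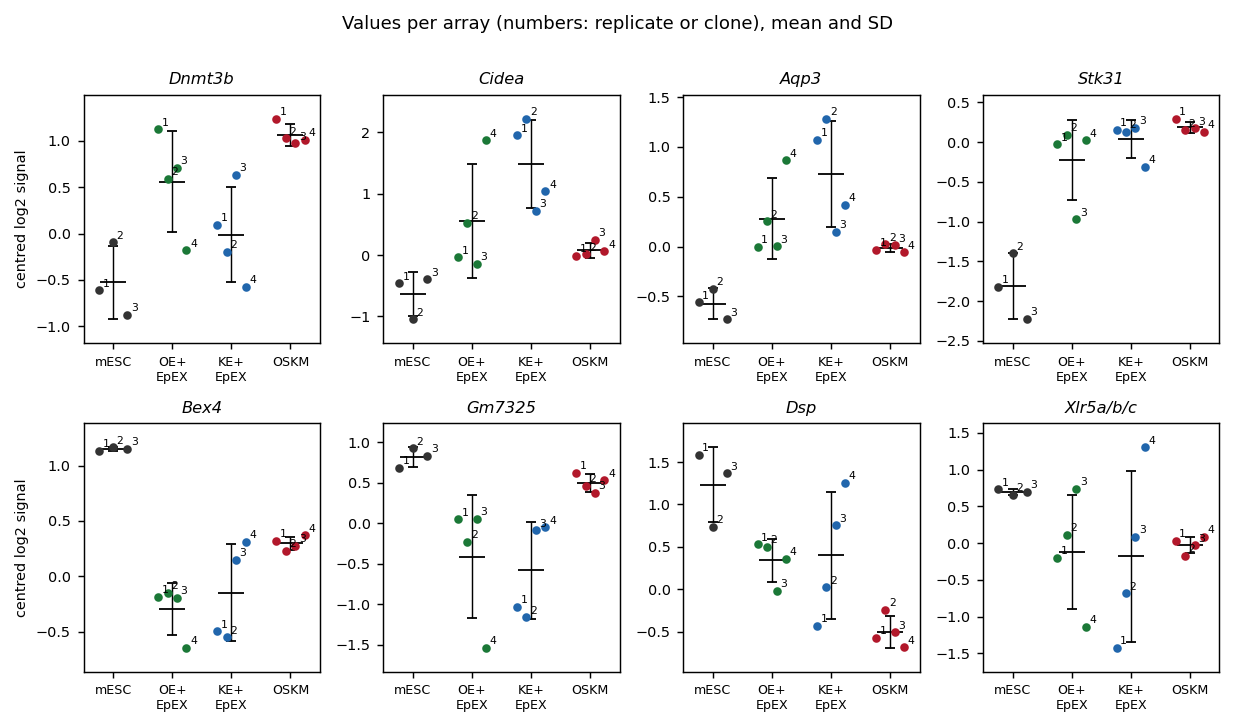
Centred log2 signal (y axis) of 8 members in each mESC array (n = 3) and iPSC clone (n = 4 per group), with clone numbers, and the mean and SD as bars. OSKM clones lie close together in each panel, while OE + EpEX clone 4 and KE + EpEX clones 1 and 2 are the highest clones for Cidea and Aqp3 and the lowest for Bex4 and Gm7325.

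The spread between clones differed by group. The median SD of the 65 probe sets was 0.10 in OSKM, 0.32 in KE + EpEX and 0.30 in OE + EpEX clones, and 0.13 in mESCs. Over all 45037 probe sets it was 0.12, 0.17, 0.15 and 0.14, and over the 408 named probe sets of the list 0.078, 0.23, 0.20 and 0.11. The members thus varied more than the array as a whole in the groups with EpEX and not in the OSKM group. The 408 named probe sets also varied more than the array in the groups with EpEX. Against the 408, the members varied more in every group, OSKM clones and mESCs included. These are descriptions for which no test was made.

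Among the 12 clones, KE + EpEX clone 1 was the lowest for 11 of the 27 members higher in mESCs and the highest for 11 of the 38 members lower in mESCs, and so lay furthest from mESCs most often. KE + EpEX clone 4 was the highest for 12 of the 27, with a median over the 27 of 0.31 against -0.34 in clone 1 of the same group. OE + EpEX clone 3 was the lowest for 17 of the 38, with a median of -0.13 against 0.03 to 0.40 in the other OE + EpEX clones. The OSKM clones had medians of 0.0045 to 0.10 for the 27 and 0.16 to 0.17 for the 38. In mESCs the medians were 0.91 to 0.95 and -1.05 to -0.95, and the gap between clones and mESCs was largely fixed by the choice of members. Repeated probe sets of one gene count more than once here.

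The mean of the fibroblast markers moved with part of this order. Their mean was highest in KE + EpEX clone 1 (1.29), OE + EpEX clone 4 (0.89) and KE + EpEX clone 2 (0.47), the clones with the highest Cidea and Aqp3, and lowest in KE + EpEX clones 3 (-0.65) and 4 (-0.80). OE + EpEX clone 3 was at 0.21, the OSKM clones at -0.34 to -0.089 and the mESCs at -0.53 to -0.33. Single markers differed in direction between mESCs and OSKM clones, which the mean hides. Pdgfra and Pdgfrb averaged 0.48 and 0.77 for mESCs against -1.25 and -0.46 for OSKM clones. Postn averaged -2.12 for mESCs against 0.075 for OSKM clones. The iPSC maximum of 1.29 compares with 4.90 to 6.04 in MEFs, and clones grew on feeder cells; the part of fibroblast RNA in the members' values was not tested. With OE + EpEX clone 4 and KE + EpEX clone 1 left out, 21 probe sets met the rule on the higher and 37 on the lower side, no member was called in any of the comparisons among iPSC groups, and Cidea still differed by 1.25 and Dnmt3b by -1.11 between KE + EpEX and OSKM clones.

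**Figure D5:**
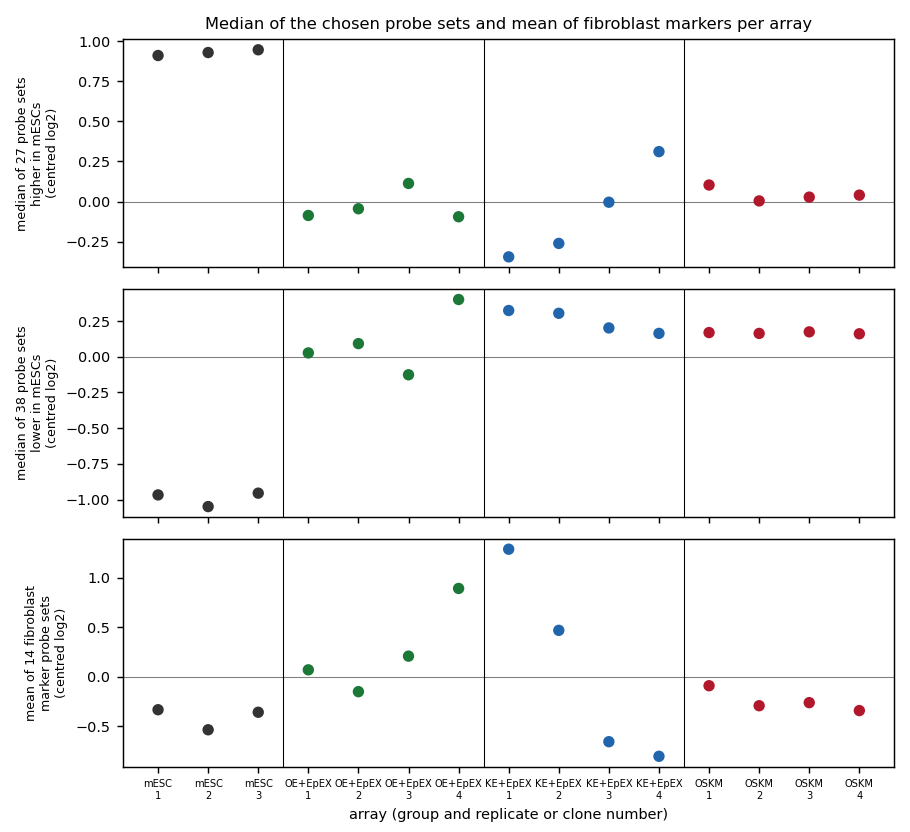
Median of the 27 probe sets higher in mESCs (top), median of the 38 lower in mESCs (middle) and mean of 14 fibroblast marker probe sets (bottom), all as centred log2 signal, in each mESC array and iPSC clone. KE + EpEX clone 1 has the lowest median in the top panel (-0.34) and the highest marker mean (1.29). All clones lie apart from mESCs in the top and middle panels, which the choice of members largely fixed.

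Where a gene had several probe sets in the deposited list, they differed in the same direction, though not always by a like amount (Mtm1, 0.80 and 0.44). All 8 lower genes with more than 1 member probe set had them on the same side, and second probe sets of Map7, Mtm1 and Nodal lay under the threshold on the same side as the member. A total of 5 member probe sets name several genes and 12 belong to types that can read near copies (names ending in _s_at or _x_at), among them those of Stk31, Gm8267 and 2210409E12Rik, so their values may sum over related transcripts. Genes outside the 12 with the largest differences in each direction, the fixed lists and the lowest p values, such as Aqp3, Dusp9 and Mdk, were named after their values had been seen.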

How the data were processed

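Total RNA of 18 samples was labelled and hybridised to Affymetrix mouse expression arrays, and the submitters' processing notes name MAS5 and RMA without saying which made the table. The deposited log2 values, which the authors had normalised and centred on the median of each probe set over all arrays, were used as deposited; 64 control probe sets were left out, and genome build and background settings are not given in the sources used here. Lists of probe sets at least 10-fold higher or lower than MEFs gave the symbols, and their fold and normalised columns were not used. Array number, not depth, limits precision. The members and gene lists were chosen with earlier results of these data known. The named members were the 12 genes with the largest difference per direction, any called member, the 3 with the lowest p per comparison, members of 19 gene lists and those at the threshold. Of the member probe sets, 1 is not reported here by name.

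The 3 comparisons among iPSC groups were fitted with limma 3.58.1 in R 4.3.3 over 45037 probe sets and all 18 arrays, with Benjamini-Hochberg adjustment, with calls made where the adjusted p was under 0.05 and the difference at least 2-fold. Tested on simulated data with 200 of 45037 probe sets changed by 2, this recovered 96.0%, 97.5% and 95.5% for OE + EpEX against OSKM, KE + EpEX against OSKM and OE + EpEX against KE + EpEX. The largest difference of a member in these comparisons was 1.41, and the simulation gave all groups the same spread. Recovery at the sizes and spreads of the members was therefore not examined. Alternatives were other thresholds, scalings, sets of arrays, moderation settings, the methods' t-test, leaving out arrays, and blocking on the replicate number. Positions and promoters were matched by symbol to RefSeq GRCm38.p6: 55 of 56 entries were placed and 39 of 51 single-symbol entries had a promoter.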

Additional observations from a re-analysis of the deposited data

Results flagged for a closer look

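Of 90 groups of 4 clones tested (30 probe sets in 3 iPSC groups), 8 held a clone whose gap to its neighbour passed Dixon's critical value, where chance flags about 1 in 20, or 4.5. Several involve the same clones. OE + EpEX clone 3 was at -1.87 for Gm8267, with the other clones of its group at 0.49 to 0.52, and at -0.97 for Stk31, with the others at -0.026 to 0.094. KE + EpEX clone 4 was at -0.31 for Stk31 (others 0.13 to 0.18), at -0.51 for Crxos1 (others 1.15 to 1.49) and at -0.051 for Ak4 (others 0.35 to 0.42). OE + EpEX clone 4 was at -0.64 for Bex4 (others -0.19 to -0.15) and at -0.14 for Smagp (others 0.39 to 0.49). OSKM clone 1 was at -0.14 for Smagp, with the others at -0.0061 to 0.011, a small gap within a tight group.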

How the results depend on the processing

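No member was called in any of the 3 comparisons among iPSC groups at 1.5-fold, without a fold threshold, with medians subtracted per array, with trend and robust moderation, with fewer groups in the fit, with less variable probe sets left out, or with the added removal of OE + EpEX clone 4 and KE + EpEX clone 1. Quantile normalization, which gives centred values of MEFs and clones the same distribution, called 7 members for OE + EpEX against OSKM, 8 for KE + EpEX against OSKM and 0 for the third comparison. It raised the number of members from 27 to 33 on the higher side and from 38 to 61 on the lower side, and the Dnmt3b difference between KE + EpEX and OSKM from -1.07 to -2.66 (limma adjusted p = 0.00389), so the sizes given here depend on the deposited scaling. Among all probe sets it called 1523 and 831 where the main setting called 20 and 0, and subtracting array medians called 19 and 0. Calls of members under quantile normalization are therefore not read as support for their differences. The methods' t-test without adjustment and fold threshold counted 9, 22 and 3 members, against 8240, 4979 and 2719 of all probe sets. Leaving out 1 clone gave 0 members for OE + EpEX against OSKM, 0 to 2 for KE + EpEX against OSKM (the 2 are the Dnmt3b probe sets, without KE + EpEX clone 3) and 0 for OE + EpEX against KE + EpEX. A threshold of 1 in place of 0.75 left 12 members higher and 25 lower, and leaving out 1 array gave 24 to 29 higher and 36 to 41 lower. None of the 9 named differences was reversed under any alternative, and with the 2 compared groups alone in the fit Bex4 passed the adjusted p (0.0220) but not the fold threshold.

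With the replicate number as a block, 0 members were called in each comparison, as without it, and the 20 probe sets called over the whole array for OE + EpEX against OSKM became 0. Replicate numbers did not pair the clones: 1 of 12 same-numbered pairs had a correlation over 0.1, with a range of -0.36 to 0.14, and in 6 of 24 cases the best match of a clone in another group had its own number.

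The deposited values were centred, so absolute levels and signal over background were not analysed here, and each comparison rests on 4 clones a group.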
